A study of Mus musculus with 2 samples.

Results

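The genes described here are 10 members of the Bcl2 family, which sets whether a cell keeps its mitochondria intact or dies by apoptosis. They were chosen by gene symbol, and all 10 have a row among the 50608 rows of the deposited table. The cells were peritoneal macrophages, phagocytes of the abdominal cavity, from C57BL6J mice, with males and females pooled and a stage labelled as embryonic day 15.5. RNA was sequenced in 1 library from cells treated with GW3965, a small molecule that activates liver X receptors (LXRs, nuclear receptors for oxidised cholesterol), and in 1 library from cells treated with the solvent DMSO. No dose, treatment time or death stimulus is given in the sources used here. The question put to these genes is whether their levels differ in macrophages with activated LXR. The column read as GW3965 shares only its opening letters with that sample's description, and every value called GW3965 below rests on that match.

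Proteins of the Bcl2 family act at the outer membrane of mitochondria. Survival proteins (Bcl2, Bcl-xL from Bcl2l1, and Mcl1) bind and hold the death members. The effectors Bax and Bak1 form pores that release cytochrome c, which then drives caspase activation. BH3-only proteins report damage: Bcl2l11 (Bim), Bid, Bbc3 (Puma) and Pmaip1 (Noxa) neutralise survival proteins or activate the effectors, and Bad binds Bcl2 and Bcl-xL when survival kinases are off. Mcl1 is a short-lived protein on which many myeloid cells depend, and much of this family is controlled at the level of protein, cleavage or phosphorylation, which RNA does not show.

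Values are FPKM, fragments scaled to gene length and sequencing depth, as deposited by the authors. Each difference is given as the GW3965 value over the DMSO value, either as a plain ratio or as the log2 of (GW3965 FPKM + 1)/(DMSO FPKM + 1), called the log2 ratio, which understates the change of low genes. A row counted as measured at a mean of at least 1 FPKM, and as higher or lower at 1.5-fold on the log2 ratio scale. Each group has 1 library, so no replicate check and no test was possible. Intervals are 95% and cover counting error only, from the fewest whole reads that can give a gene's deposited values, or for Mcl1 from reads estimated with its annotated length. Where a gene's true reads are a multiple of the fewest, its interval is narrower than the one given. Over 11889 measured rows the log2 ratio had a median of 0.24, or 1.18-fold on that scale, so values relative to that median are also given and called centred. The depths recovered from the values were 75287123 reads for GW3965 and 101866068 reads for DMSO, and the reads behind a member ran from 518 to 34930 in GW3965 and from 574 to 37745 in DMSO.

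Bcl2l1 was the member that passed 1.5-fold, and its start regions are shown for that reason. It lies at chr2:152780668-152831728 on the minus strand of GRCm38, with 9 annotated transcripts, and RefSeq (GRCm38.p6) lists 3 start sites for it. Each window runs from 250 bases before to 50 bases after a start site, 5′ to 3′ on the minus strand. They are chr2:152828440-152828739 (window A), chr2:152830668-152830967 (window B) and chr2:152831679-152831978 (window C). The window of Mcl1, the most abundant member, stands beside them for comparison and lies on the plus strand at chr3:95658471-95658770. Capitals mark the motif matches described next.
Bcl2l1 window A: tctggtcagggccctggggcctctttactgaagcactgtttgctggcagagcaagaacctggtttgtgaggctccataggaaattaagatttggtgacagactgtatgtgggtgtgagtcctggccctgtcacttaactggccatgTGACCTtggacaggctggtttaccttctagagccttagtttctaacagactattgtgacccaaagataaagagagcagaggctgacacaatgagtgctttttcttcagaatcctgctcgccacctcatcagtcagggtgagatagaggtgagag
Bcl2l1 window B: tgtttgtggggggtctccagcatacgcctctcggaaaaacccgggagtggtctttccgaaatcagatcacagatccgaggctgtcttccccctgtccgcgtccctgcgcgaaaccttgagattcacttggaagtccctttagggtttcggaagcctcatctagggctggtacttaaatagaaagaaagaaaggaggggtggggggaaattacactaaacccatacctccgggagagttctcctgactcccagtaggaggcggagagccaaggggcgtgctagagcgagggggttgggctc
Bcl2l1 window C: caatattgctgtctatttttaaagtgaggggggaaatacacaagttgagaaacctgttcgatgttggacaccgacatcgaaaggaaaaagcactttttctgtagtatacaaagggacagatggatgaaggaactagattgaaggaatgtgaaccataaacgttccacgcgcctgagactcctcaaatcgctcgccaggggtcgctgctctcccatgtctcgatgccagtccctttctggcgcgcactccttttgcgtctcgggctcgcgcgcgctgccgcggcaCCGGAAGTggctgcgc
Mcl1 window: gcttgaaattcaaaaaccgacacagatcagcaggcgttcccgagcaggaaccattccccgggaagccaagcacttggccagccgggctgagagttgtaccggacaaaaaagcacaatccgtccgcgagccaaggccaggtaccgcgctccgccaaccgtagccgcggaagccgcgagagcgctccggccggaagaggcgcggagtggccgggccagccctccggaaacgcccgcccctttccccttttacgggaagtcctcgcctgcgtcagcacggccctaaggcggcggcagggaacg

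Both strands of 15 windows of 9 members were searched for 4 motifs, and the RefSeq windows used here held none for Pmaip1. The nuclear receptor hexamer AGGTCA was found in Bcl2l1 window A alone, on the opposite strand as TGACCT, starting at position -104 from the start site. The share of all 32851 RefSeq windows of the same length with this hexamer was 16.3%. The full LXR-type repeat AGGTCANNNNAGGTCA was in 0 of the 15 windows and in 0.0152% of all windows. The ETS-type motif CCGGAAGT was found in Bcl2l1 window C alone, 34 bases after the start site, against 3.89% of all windows. The STAT-type motif TTCNNNGAA was in 0 of the 15, against 8.30% of all. Window A had 49.3% G and C with 1 CpG, window B 55.7% with 14 and window C 52.3% with 22, against 65.7% with 33 in the Mcl1 window. The table counts whole genes, so it does not show which Bcl2l1 start site or splice form the reads came from. These matches describe letters in the windows and nothing about the binding of a factor.

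Among the survival members, Bcl2l1 was 1.75-fold higher in the GW3965 library, Mcl1 1.25-fold and Bcl2 1.40-fold. Of the 10 members, 1 was higher by 1.5-fold and 0 were lower, while 3.46% of all measured rows were higher and 0.0757% lower. The members' median log2 ratio was 0.21, against 0.24 over all measured rows. After centring, 0 of the 10 members passed the limit in either direction, against 1.38% of measured rows higher and 0.336% lower. As deposited 9 of the 10 members had a positive log2 ratio, and after centring 4 lay above the median row and 6 below it.

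Bcl2l1 encodes Bcl-xL, with a short splice form, Bcl-xS, that promotes death. It had 16.7 FPKM in the GW3965 library and 9.55 FPKM in the DMSO library, a ratio of 1.75 (counting interval 1.68 to 1.82). The library intervals, 16.3 to 17.1 FPKM for GW3965 and 9.28 to 9.83 FPKM for DMSO, lie far apart. Its log2 ratio of 0.75 was at the 98.2nd percentile of the measured rows, with 219 rows at or above it. Centred, it was 0.50, short of the 1.5-fold limit, so the call of Bcl2l1 depended on the scaling between libraries.

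Mcl1, at chr3:95658788-95663176 on the plus strand, had 139.8 FPKM in the GW3965 library and 111.6 FPKM in the DMSO library. The ratio was 1.25 (1.23 to 1.27) and the centred log2 ratio 0.08, at the 70.3rd percentile of measured rows. Mcl1 was thus the most abundant member in each library and lay near the typical row. Bcl2, the founding member, at chr1:106538178-106714274 on the minus strand, had 0.911 FPKM in GW3965 and 0.650 FPKM in DMSO, which made it the lowest of the 10 in both. Its ratio was 1.40 (1.25 to 1.58), its log2 ratio 0.21 and its centred log2 ratio -0.03. Bcl2 was the member below the limit for a measured row.

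**Figure D1:**
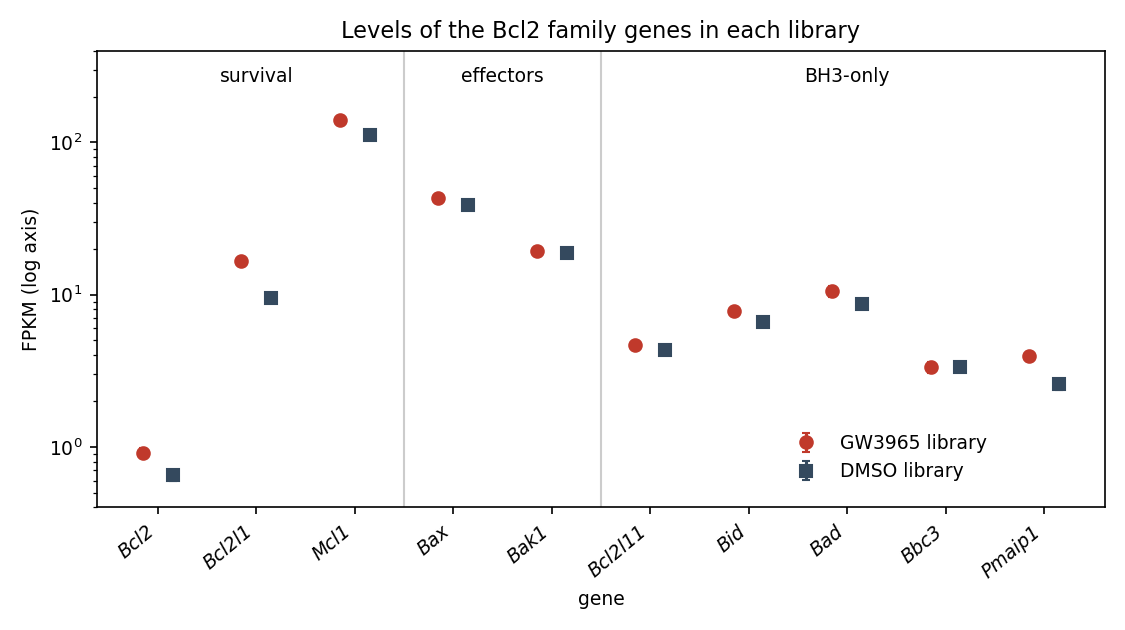
FPKM of each member (log axis) in the GW3965 library (red circles) and the DMSO library (dark squares), grouped by role, with counting intervals that are mostly smaller than the symbols. Mcl1 stands highest, at 139.8 FPKM in GW3965 and 111.6 FPKM in DMSO, and Bcl2 lowest, at 0.911 FPKM in GW3965 and 0.650 FPKM in DMSO; the widest gap in plain ratio is that of Bcl2l1.

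The effectors differed little in level. Bax, at chr7:45461697-45466898 on the minus strand, had 42.9 FPKM in the GW3965 library and 38.8 FPKM in the DMSO library, a ratio of 1.11 (1.05 to 1.17). Bak1, at chr17:27019810-27029009 on the minus strand, had 19.2 FPKM in GW3965 and 18.7 FPKM in DMSO, and its ratio of 1.03 (0.946 to 1.11) included 1. Both lay below the median row, with centred log2 ratios of -0.10 for Bax and -0.21 for Bak1. Bax exceeded Bak1 by 2.23-fold in GW3965 and by 2.07-fold in DMSO, a change of 1.08 (0.979 to 1.19) whose interval included 1 at the fewest reads.

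The BH3-only members split. Pmaip1, which binds Mcl1 and is induced by p53 and by stress, had 3.94 FPKM in the GW3965 library and 2.57 FPKM in the DMSO library. Its plain ratio was 1.53 (1.38 to 1.70), while its log2 ratio of 0.47 was under the 1.5-fold limit and its centred value was 0.22, at the 92.1st percentile of measured rows. It was second to Bcl2l1 among the members.

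Bbc3, the other BH3-only gene best known as a p53 target, lies at chr7:16308393-16318205 on the plus strand. It had 3.33 FPKM in the GW3965 library and 3.34 FPKM in the DMSO library, a ratio of 0.997 (0.888 to 1.12). With a centred log2 ratio of -0.25, at the 6.26th percentile, it was the lowest member on that scale. Pmaip1 over Bbc3 was 1.18 in GW3965 and 0.769 in DMSO, so the order of these genes differed between the libraries, by 1.54-fold (1.32 to 1.79).

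Bcl2l11, whose product Bim binds all survival proteins and is known for a part in removing myeloid and lymphoid cells, lies at chr2:128126038-128162547 on the plus strand. It had 4.64 FPKM in the GW3965 library and 4.32 FPKM in the DMSO library, or 1.07-fold (1.02 to 1.13), with a centred log2 ratio of -0.16. Bid, which caspase 8 cleaves to link death receptors to mitochondria, lies at chr6:120891930-120916853 on the minus strand. It had 7.75 FPKM in GW3965 and 6.63 FPKM in DMSO, a ratio of 1.17 (1.09 to 1.25) and a centred value of -0.05. Bad, at chr19:6941861-6951899 on the plus strand, had 10.5 FPKM in GW3965 and 8.69 FPKM in DMSO. The ratio of Bad was 1.21 (1.08 to 1.36) and its centred value 0.0045, the closest of the 10 to the median row. The annotated span of Bid shares 913 bases with Bcl2l13, and that of Bad shares 620 bases with Gpr137, each on the opposite strand. The span of Bcl2 shares 33103 bases with the antisense gene D630008O14Rik, and that of Bax shares 915 bases with the protein-coding Gm45808 on its own strand. Bcl2 and Bid each also overlap 2 other annotated entries, none of them protein-coding. No source used here says whether reads were counted by strand, so reads of those stretches cannot be told apart.

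**Figure D2:**
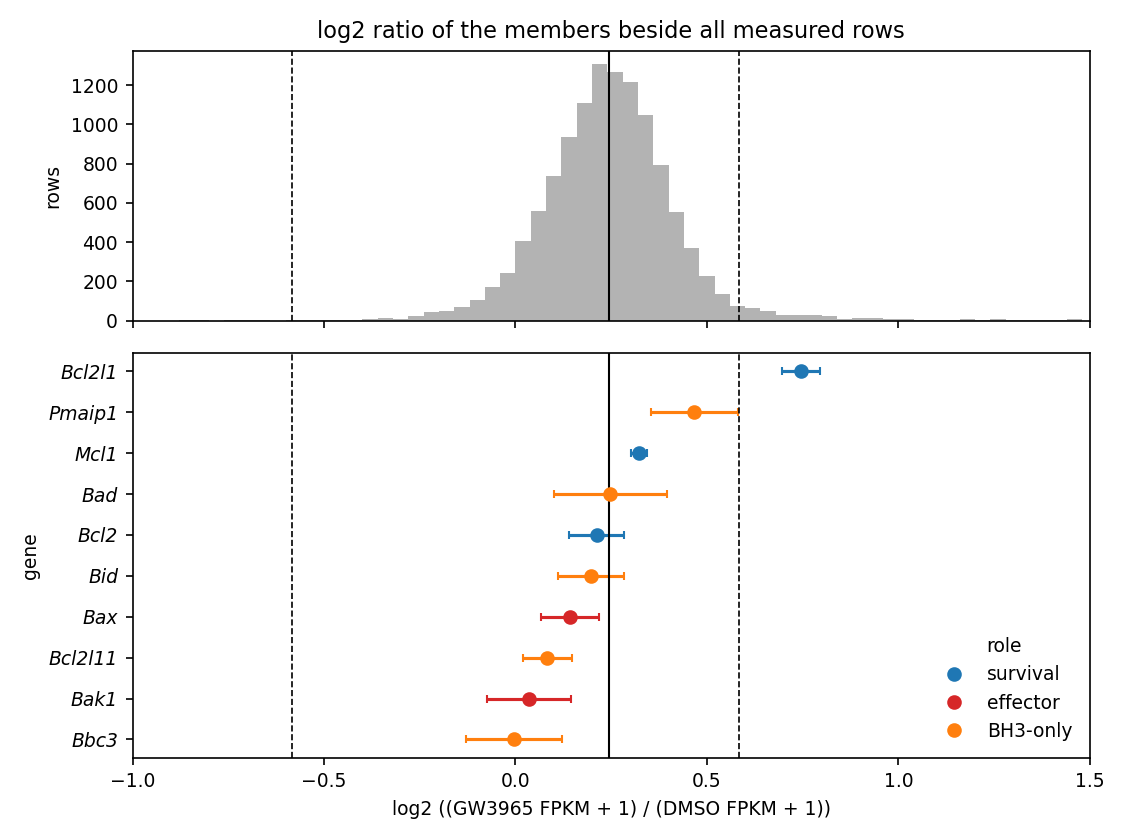
Top, number of measured rows at each log2 ratio (45 rows lie beyond the right edge); bottom, log2 ratio of each member with its counting interval, coloured by role. The solid line is the median of the measured rows (0.24) and the dashed lines the 1.5-fold limits; Bcl2l1 at 0.75 is the member beyond a limit, and Bbc3, Bak1, Bcl2l11, Bax, Bid and Bcl2 lie left of the solid line.

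The order of the members by level was nearly the same in the libraries. In GW3965 it ran Mcl1, Bax, Bak1, Bcl2l1, Bad, Bid, Bcl2l11, Pmaip1, Bbc3 and Bcl2, and in DMSO Bbc3 stood above Pmaip1. Counting intervals of neighbours did not overlap in GW3965. In DMSO those of Bcl2l1 (9.28 to 9.83 FPKM) and Bad (8.03 to 9.39 FPKM) overlapped, so these were not separated there at the fewest reads. Bad had 640 such reads in DMSO, and a multiple of that would narrow its interval. These comparisons between genes rest on the lengths the authors divided by. Mcl1 made up 56.0% of the summed FPKM of the family in GW3965 and 54.5% in DMSO, while Bcl2l1 made up 6.69% in GW3965 and 4.66% in DMSO.

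Ratios between members within a library do not change with a scaling of that library, so they hold without centring. The sum of the survival members over the sum of the 7 death members was 1.70 in the GW3965 library and 1.47 in the DMSO library, which is 1.16-fold higher (1.12 to 1.21) in GW3965. Behind it, the survival sum was 157.4 FPKM in GW3965 and 121.8 FPKM in DMSO, and the death sum 92.3 FPKM in GW3965 and 83.1 FPKM in DMSO. The log2 change of this balance was 0.22. Single measured rows, centred, had 5th and 95th percentiles of -0.27 and 0.28. Those percentiles add 1 FPKM to each value of single rows, while the balance takes sums with nothing added. They are therefore not a like measure. The interval of the balance covers counting error only. Mcl1 carries most of the survival sum. Without Mcl1, the ratio was 0.191 in GW3965 and 0.123 in DMSO, a change of 1.55-fold (1.48 to 1.63), and that sum holds only Bcl2l1 and the far lower Bcl2. Against the effectors alone the survival sum was 2.53-fold in GW3965 and 2.12-fold in DMSO, and against the BH3-only members alone 5.22-fold in GW3965 and 4.77-fold in DMSO, the smaller change at 1.09 (1.04 to 1.15).

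Bcl2l1 had the largest plain ratio of the 10 members, so its ratio to each death member had to be higher in GW3965. The 7 changes below restate that difference and are not separate observations. Their counting intervals lay above 1 for all 7. Bcl2l1 over Bax was 0.389 in GW3965 and 0.246 in DMSO, a change of 1.58 (1.48 to 1.69). Bcl2l1 over Bak1, whose product Bcl-xL and Mcl1 hold in check in resting cells, was 0.869 in GW3965 and 0.510 in DMSO, a change of 1.70 (1.56 to 1.86). For Bcl2l1 over Bcl2l11 the values were 3.60 in GW3965 and 2.21 in DMSO, a change of 1.63 (1.52 to 1.74). The smallest change was against Pmaip1, at 4.24 in GW3965 and 3.71 in DMSO, or 1.14 (1.02 to 1.27). Relative to Mcl1, Bcl2l1 was at 0.119 in GW3965 and 0.0856 in DMSO, a change of 1.40 (1.34 to 1.45), so the mix of survival RNAs differed.

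Mcl1 moved less than Bcl2l1 relative to 6 of the 7 death members, with Pmaip1 as the exception. For each death member, the change of Bcl2l1 is that of Mcl1 times the same 1.40. The contrast therefore adds no separate observation. Mcl1 over Bax was 3.26 in GW3965 and 2.88 in DMSO, a change of 1.13 (1.07 to 1.20), and Mcl1 over Bcl2l11 was 30.1 in GW3965 and 25.8 in DMSO, a change of 1.17 (1.10 to 1.23). The intervals of its change against Bid (0.999 to 1.15) and Bad (0.924 to 1.16) included 1 at the fewest reads of Bid and Bad. Against Pmaip1, whose protein is selective for Mcl1, the ratio was lower, at 35.5 in GW3965 and 43.4 in DMSO, a change of 0.818 (0.736 to 0.908). Against Bak1 and Bbc3 the changes were 1.22 and 1.26.

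**Figure D3:**
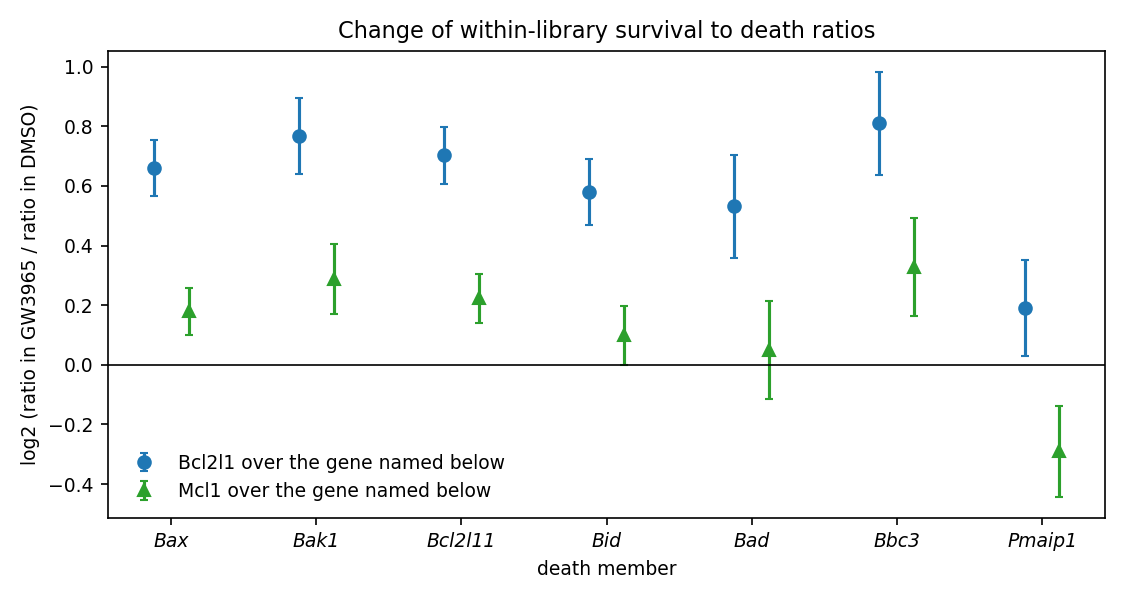
Change between libraries, as log2 of the GW3965 ratio over the DMSO ratio, of Bcl2l1 (circles) and Mcl1 (triangles) relative to each death member, with counting intervals. Circles lie above 0 for each of the 7 death members, and the triangle for Pmaip1 lies below 0 at -0.29. Circle and triangle differ by the same amount at each gene.

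Other genes of the pathway stayed close to the median row. Of 82 listed, 81 had a row and 67 were measured, and of these 3 passed 1.5-fold upward and 0 downward, with 1 and 0 left once centred. Their median log2 ratio was 0.29 and their median centred value 0.04, with the middle of the distribution (quartiles) from -0.07 to 0.13. Percentages for all measured rows are those given above, 3.46% higher as deposited and 1.38% centred.

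Among the other relatives of survival type, 4 of 6 were measured and 0 passed the limit, with a median log2 ratio of 0.29. Bcl2a1b, one of the A1 genes that inflammatory signals induce in myeloid cells, had 84.3 FPKM in the GW3965 library and 61.0 FPKM in the DMSO library, a centred log2 ratio of 0.22. Bcl2a1d had 20.2 FPKM in GW3965 and 16.5 FPKM in DMSO, Bcl2a1a 4.01 in GW3965 and 3.11 in DMSO, and Bcl2l2 (Bcl-w) 8.33 in GW3965 and 6.60 in DMSO. The A1 genes are near-identical copies, so the split of reads among them is uncertain. With these relatives and Bok, Bmf, Bik and Hrk added, the survival to death ratio was 2.89 in GW3965 and 2.45 in DMSO, or 1.18-fold higher, close to the 1.16 of the members alone. The relatives of death type and others had 6 of 11 measured, 0 past the limit and a median log2 ratio of 0.22, with Bnip3l, a receptor for the removal of mitochondria, at 81.2 FPKM in GW3965 and 61.2 FPKM in DMSO.

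Downstream of the pore, 0 of 8 measured apoptosome and caspase genes passed the limit, at a median log2 ratio of 0.22. The initiator Casp9 had 12.3 FPKM in GW3965 and 9.67 FPKM in DMSO, and its scaffold Apaf1 11.6 FPKM in GW3965 and 8.87 FPKM in DMSO. Mitochondrial factors had 0 of 7 past the limit, at a median of 0.28, with Vdac3, a channel of the outer membrane, at 34.7 FPKM in GW3965 and 25.4 FPKM in DMSO.

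Inhibitors of apoptosis had a median log2 ratio of 0.47 and a centred median of 0.23, with all 7 of 7 measured genes above the median row. As deposited 2 of the 7 were higher by 1.5-fold, and 0 after centring. Naip5, a sensor of bacterial flagellin that carries the BIR domains of this class, had 8.84 FPKM in GW3965 and 5.16 FPKM in DMSO, a log2 ratio of 0.67. Naip1 had 1.63 FPKM in GW3965 and 0.744 FPKM in DMSO, a log2 ratio of 0.59. Naip2 had 23.6 FPKM in GW3965 and 15.6 FPKM in DMSO, one of 0.57. Naip genes are close copies and the split of reads among them is uncertain. Xiap, the direct inhibitor of caspases, had 10.9 FPKM in GW3965 and 7.60 FPKM in DMSO, a centred value of 0.23.

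In the death receptor arm that cleaves Bid, 0 of 6 measured genes passed the limit, at a median of 0.31, with Cflar, the inhibitor of caspase 8, at 10.02 FPKM in GW3965 and 7.12 FPKM in DMSO. Casp8 had 9.32 FPKM in GW3965 and 6.92 FPKM in DMSO. The list for control of BH3-only transcription holds p53 and its negative regulators, and also targets of p53. It had 0 of 10 past the limit and a median of 0.29, and 6 of the 10 lay above the median row. There the p53 target Trp53inp1 had 5.77 FPKM in GW3965 and 3.74 FPKM in DMSO, and Mdm2 21.5 FPKM in GW3965 and 16.4 FPKM in DMSO. Genes for the turnover of Mcl1 had 0 of 5 past the limit, at a median of 0.26, with the deubiquitinase Usp9x, which stabilises Mcl1, at 18.2 FPKM in GW3965 and 13.1 FPKM in DMSO. The 14-3-3 proteins and kinases that hold Bad had 0 of 11 past the limit and a median of 0.19, with Ywhae at 79.5 FPKM in GW3965 and 61.6 FPKM in DMSO.

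Survival genes linked to LXR in macrophages were listed from knowledge of earlier work, so their direction is not independent evidence. Of 6 measured, 3 were higher by 1.5-fold (Cd5l, Bcl2l1 and Naip1) and 0 lower. Centred, 1 was higher and 0 lower. The list's median log2 ratio was 0.53. Cd5l, also called AIM for its part in macrophage survival, had 6.28 FPKM in the GW3965 library and 2.21 FPKM in the DMSO library, a log2 ratio of 1.18 and a centred value of 0.94. Casp1, the inflammasome caspase, had 34.1 FPKM in GW3965 and 24.3 FPKM in DMSO, a centred value of 0.23. Fasl had 0.0410 FPKM in GW3965 and 0.0202 FPKM in DMSO, far below the limit for a measured gene.

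**Figure D4:**
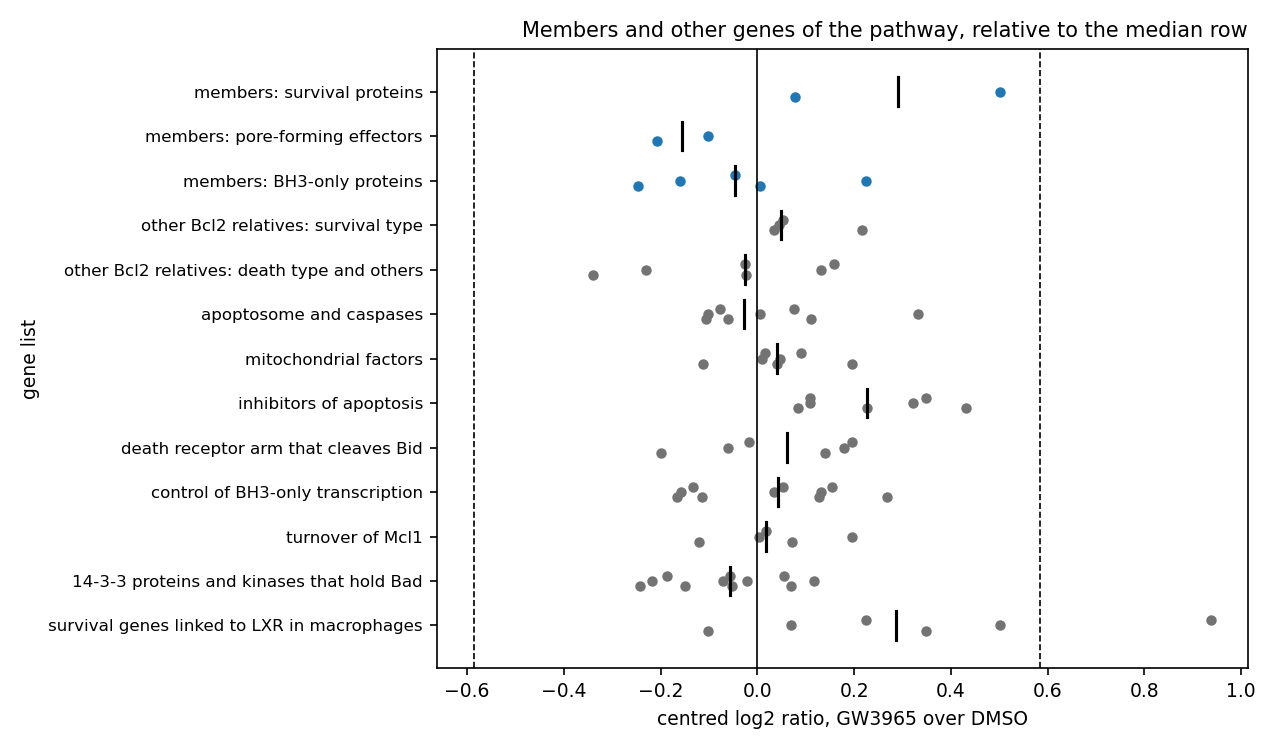
Centred log2 ratio of each measured gene by list, members in blue and other pathway genes in grey (Bcl2l1 also appears among the survival genes linked to LXR), with black bars at list medians and dashed lines at the 1.5-fold limits. The gene beyond a limit is Cd5l at 0.94; the inhibitors of apoptosis all lie right of 0.

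The marker lists describe what else the libraries held. Of 10 LXR targets, 9 were higher by 1.5-fold as deposited and 8 after centring, with Abca1 at 261.1 FPKM in the GW3965 library and 19.9 FPKM in the DMSO library. Macrophage markers summed to 6038 FPKM in GW3965 and 5040 FPKM in DMSO, with all 8 that have a row measured and Mertk, itself linked to LXR, the 1 past the limit. Markers of mesothelial cells and fibroblasts, 5 of 7 measured, summed to 25.7 FPKM in GW3965 and 17.0 FPKM in DMSO, and Dcn passed the limit. B cell markers summed to 77.5 FPKM in GW3965 and 20.2 FPKM in DMSO, or to 13.1 FPKM in GW3965 and 10.9 FPKM in DMSO without Ighm. Cd22 alone gave 9.11 FPKM of the latter sum in GW3965 and 8.20 FPKM in DMSO, a ratio of 1.11. Cd79a and Cd79b, both low, had ratios of 1.55 and 1.38. T and NK cell markers summed to 1.12 FPKM in GW3965 and 0.704 FPKM in DMSO, and mast cell markers to 1.44 in GW3965 and 0.590 in DMSO. Dendritic cell markers summed to 1.07 FPKM in GW3965 and 0.719 FPKM in DMSO, and neutrophil markers to 4.07 in GW3965 and 3.64 in DMSO. No marker with a row was at 0. All 7 of these cell type lists, the macrophage list included, had a higher sum in the GW3965 library. The median measured row was higher there too, by 1.18-fold on the log2 ratio scale. The sums are plain FPKM, so that median is not a like measure. Sums of the B, T and NK, mast, dendritic, and mesothelial and fibroblast lists differed by larger folds than the macrophage sum. The neutrophil sum differed by a smaller one. The centred median of measured markers was 0.02 for macrophages, 0.05 for B cells and 0.17 for mesothelial cells and fibroblasts. The 1 measured neutrophil marker was at -0.14. No T and NK, mast or dendritic cell marker was measured. Bcl2l1 was also higher in the GW3965 library, and the part of these cell types in its value was not tested. In bulk samples fewer cells of a type and less RNA per cell cannot be told apart.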

How the data were processed

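The authors deposited 1 table of FPKM values with 1 column per library, in which 25979 of 50608 rows are NONCODE identifiers. Per the submitters' processing notes, STAR 2.3.0, HTSeq 0.5.4p3 and GRCm38 (mm10) were used, with no role or order. No source used here gives the annotation, the strand setting or the treatment of reads with several matches. Libraries came from total RNA and a TruSeq RNA kit, per the labels' protocols.

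The members and lists were chosen with earlier results of these data known. Low FPKM values move in steps of whole reads, which gave the depth. In 76.0% of 30136 low rows the libraries differed by a fraction of whole reads (denominator at most 30) once 1 factor, 1.35, was allowed between libraries, against 0.166% with the factor moved by 1%. GENCODE M21 exon lengths reduced by 99 bases gave the depth itself (222 of 8441 rows at 1 depth, 64 at the next best reduction). A member's reads are the fewest that give whole numbers in both libraries, so the true number is that or a multiple; Bcl2l1 had 6149 reads in GW3965 and 4761 in DMSO. For Mcl1 rounding alone would give 0.337 such solutions, over a limit of 0.1, so the exon length was used. Ratio intervals are exact conditional (Clopper-Pearson), those of sums and of ratios between members use the delta method. The recovery of depth and reads was tried on simulated data, where reads or a whole fraction of them were recovered for 43 of 44 genes checked. The simulation kept a larger share of genes at the annotated length than the 222 of 8441 rows above. It therefore does not show that the depth is right for these data. Named genes are all members, up to 4 measured genes per further list by size of log2 ratio, and others picked after their values were seen (Fasl, Bcl2l13, Gpr137, Gm45808 and D630008O14Rik). A gene that meets this rule is not reported here. The 3 highest rows held 65.9% of the FPKM sum in GW3965 and 79.7% in DMSO. Calculations used scipy 1.17.1, pandas 2.3.3 and numpy 2.4.6 under Python 3.11.15, and plots matplotlib 3.10.9. Alternatives were other pseudocounts, scalings, a 2-fold limit, filters on low values and other sums.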

Additional observations from a re-analysis of the deposited data

How the results depend on the processing

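No paired analysis was possible because there is 1 library of each kind. The count of members higher by 1.5-fold, 1 as deposited, was 2 with a pseudocount of 0.1 (Bcl2l1 and Pmaip1). It was 3 with the same sum of FPKM (Mcl1 added). Of the 11889 measured rows, 411 were higher as deposited, 1024 with that pseudocount and 2604 with the same sum. The member count was 0 when centred on the median row (164 rows higher), with the same upper quartile (166 rows) and at a 2-fold limit. Centred on protein-coding rows, an alternative chosen after seeing the data, it was also 0 (172 rows). The count of lower members was 0 under each of the 9 alternatives. Lower rows ran from 1 with the same sum to 40 when centred on the median row, across the pseudocounts and scalings. The members' median log2 ratio, 0.205, was -0.0386 centred, -0.0441 with the same upper quartile, -0.0269 centred on protein-coding rows and 0.42 with the same sum, while all measured rows moved by like amounts. The log2 change of the survival to death balance, 0.22, was 0.64 without Mcl1 and 0.13 against BH3-only members alone, and kept its sign under all 5 alternatives. These alternatives reuse the same 2 libraries and overlapping genes, so the kept sign is not separate support. Centring put 6 of the 10 members below 0, with Bcl2l1 at 0.50. The scalings move each member by construction; the cause of the shift between libraries was not tested. Depth limits little here: over 1 kb, a single read adds 0.0133 FPKM in GW3965 and 0.00982 in DMSO.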
